A study of Mus musculus with 6 samples.

Results

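Hair shaft keratins are the structural proteins of the hair fibre, and 10 of their genes were examined in the skin of C3H/HeJ mice, namely the type I genes Krt31, Krt32, Krt33a, Krt33b, Krt34 and Krt35 and the type II genes Krt82, Krt84, Krt85 and Krt86. The genes were taken by symbol from the probe annotation of the array. Of the 10, 9 were measured by a probe set that carries 1 gene symbol, out of 18193 genes on the array with such a probe set; Krt85 is not analysed here. The study compared affected skin of 3 alopecic mice, which carried the phenotype alopecia areata, with skin of 3 unaffected mice, on 1 array per animal. All 6 mice were of the inbred strain C3H/HeJ, and the sources used here give no genotype other than the strain, no treatment, no age, no body site and no hair cycle stage.

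A hair keratin filament forms when an acidic type I keratin pairs with a basic type II keratin, and disulfide bonds between the filaments and the cysteine-rich keratin-associated proteins then harden the fibre. In the growing follicle, cells leave the dividing matrix at its base and switch on hair keratins in sequence as they move up into the cortex, which makes up the bulk of the fibre, and into the cuticle that covers it. The genes are therefore active in growing follicles and silent in resting ones. In alopecia areata, lymphocytes gather around growing follicles and the hair falls out. Skin samples are mixtures of tissues, and in them fewer hair-forming cells and less keratin RNA per cell cannot be told apart.

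In the RefSeq annotation of GRCm38.p6, all 6 type I members lie on chromosome 11, in the order Krt33a, Krt33b, Krt34, Krt31, Krt32 and Krt35, and the measured type II members Krt86, Krt84 and Krt82 lie on chromosome 15. Promoter sequences of that annotation were matched for 6 of the 9 members, each running from 250 bases before to 50 bases after the start of the gene. Krt32 and Krt34 were chosen as type I members, with Krt31 between them, whose values took different orders among the alopecic arrays. Krt82 and Krt84 are the type II members with a sequence, and the promoters of these 4 members are shown. They come from chr11:100088220-100088519 (Krt32), chr11:100041505-100041804 (Krt34), chr15:101550610-101550909 (Krt82) and chr15:101532771-101533070 (Krt84), all on the minus strand of the genome, and are written 5′ to 3′ on the strand of the gene. Capitals mark TATAAA (the TATA box), CTTTGA (a core recognised by LEF1 and TCF proteins) and TTTTATG, each on either strand.
Krt32: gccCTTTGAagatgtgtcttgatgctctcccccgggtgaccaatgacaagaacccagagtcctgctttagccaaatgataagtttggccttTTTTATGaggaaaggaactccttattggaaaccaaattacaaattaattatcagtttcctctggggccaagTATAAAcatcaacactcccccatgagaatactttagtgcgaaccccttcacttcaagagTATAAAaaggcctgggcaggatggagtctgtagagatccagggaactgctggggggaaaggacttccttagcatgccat
Krt34: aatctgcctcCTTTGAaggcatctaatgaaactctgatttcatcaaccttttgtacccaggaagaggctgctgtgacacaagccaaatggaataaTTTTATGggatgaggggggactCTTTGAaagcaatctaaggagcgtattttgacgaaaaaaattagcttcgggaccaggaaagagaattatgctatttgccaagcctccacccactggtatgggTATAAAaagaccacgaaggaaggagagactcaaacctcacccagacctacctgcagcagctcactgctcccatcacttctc
Krt82: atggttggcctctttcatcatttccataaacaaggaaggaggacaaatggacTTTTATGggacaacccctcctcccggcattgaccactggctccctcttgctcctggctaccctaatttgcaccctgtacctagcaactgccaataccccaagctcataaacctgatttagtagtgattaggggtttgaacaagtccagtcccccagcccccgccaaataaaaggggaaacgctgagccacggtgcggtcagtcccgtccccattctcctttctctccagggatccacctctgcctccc
Krt84: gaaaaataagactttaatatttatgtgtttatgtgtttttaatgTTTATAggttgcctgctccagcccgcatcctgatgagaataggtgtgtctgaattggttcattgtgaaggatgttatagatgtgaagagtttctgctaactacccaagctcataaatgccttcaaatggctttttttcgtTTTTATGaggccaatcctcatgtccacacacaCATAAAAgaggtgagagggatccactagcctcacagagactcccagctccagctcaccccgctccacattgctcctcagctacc

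TATAAA or its reverse complement TTTATA was found in 5 of the 6 member promoters and in 13.6% of 32851 mouse promoters of the same length. On the strand of the gene it began at -29 in Krt31 and Krt32, at -31 in Krt34 and at -47 in Krt33b, counted from the start of the gene, and Krt32 held another at -88. In Krt84 only the reverse complement was found, at -206. CTTTGA was found in 4 of the 6, all of type I, and in 16% of all promoters; it began at -240 and -133 in Krt34, at -244 in Krt31 and at -247 in Krt32 and Krt33b. The letters TTTTATG were chosen after the promoters were read, so their count is a description: they stand in 6 of the 6 member promoters and, on either strand, in 4.19% of all promoters. They began at -159 in Krt31 and Krt32, at -160 in Krt33b, at -155 in Krt34 and at -198 in Krt82. In Krt84 they began at -66, and the reverse complement CATAAAA at -34. The letters CAATAAA, a core bound by posterior HOX proteins, were in 0 of the 6 windows on either strand and in 4.6% of all promoters. The matches do not overlap each other in these windows, and a match or its absence describes the exact letters only. Variants of these letters and other HOX sites were not searched, so the 0 for CAATAAA does not show that HOX sites are absent.

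Values are log2 RMA values, in which a step of 1 is a doubling of the normalized signal, and a difference between the groups is always alopecic minus unaffected. Over all 6 arrays no hair shaft keratin passed the test for a difference between alopecic and unaffected skin, and the spread among the unaffected mice was larger than the difference between the group means for each of the 9. Of all genes, 29.1% had their lowest value in unaffected replicate 3. There all 9 measured members were at their lowest value of the 6 arrays, Krt84 only narrowly (6.43 against 6.45 in alopecic replicate 2). Their values in unaffected replicates 1 and 2 were high, and for 7 of the 9 the alopecic arrays lay in between. The unaffected SD was above 2 log2 units for 8 of the 9 members and for 1.64% of all genes, and it was above the alopecic SD for each of the 9.

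**Figure D1:**
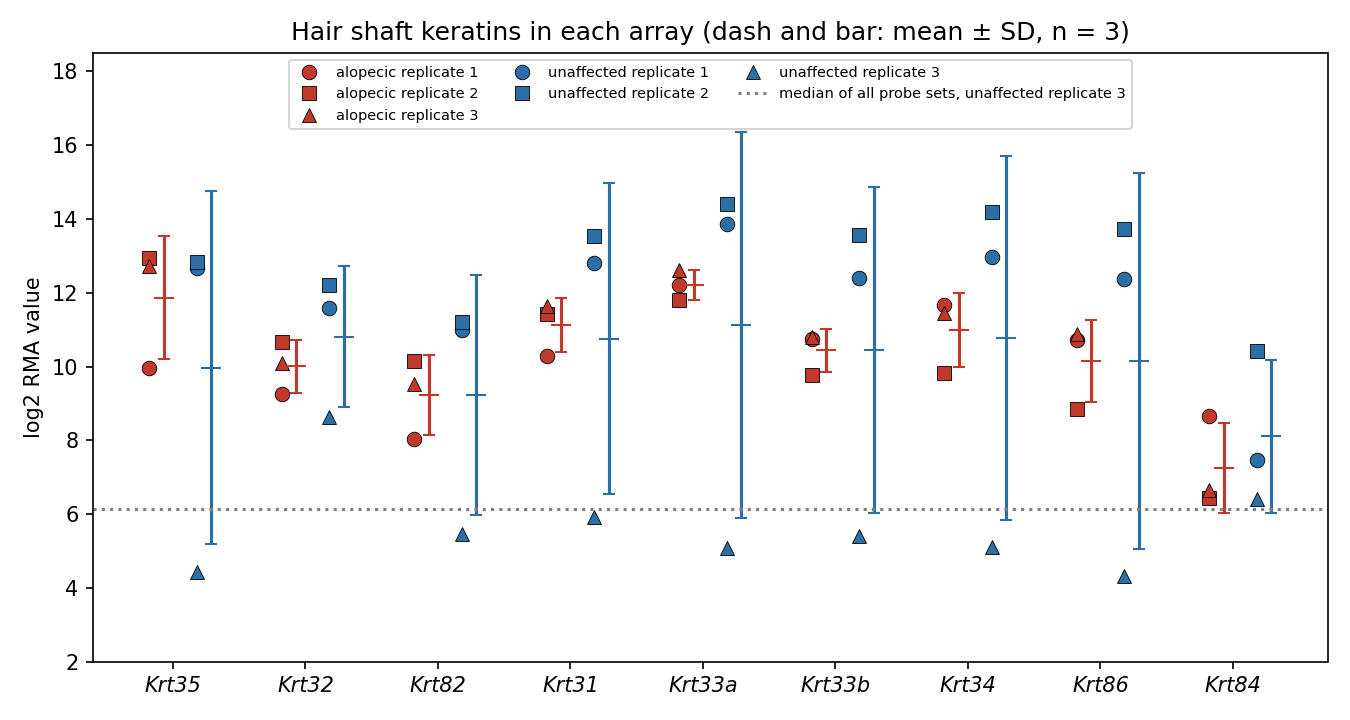
Log2 RMA value (y axis) of each measured hair shaft keratin (x axis) in the 3 alopecic (red) and 3 unaffected (blue) arrays; symbols mark the replicate, and the dash with its bar gives the mean ± SD (n = 3). Unaffected replicate 3 (blue triangles) is the lowest array for all 9 members, for Krt84 only narrowly. For 7 of the 9 it lies below the dotted median of all probe sets on that array.

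Krt35 is a type I keratin that in human follicles appears early, in the matrix and the cuticle. It had log2 values of 9.95, 12.94 and 12.72 in alopecic replicates 1, 2 and 3. In unaffected replicates 1, 2 and 3 it had 12.66, 12.83 and 4.44. Alopecic replicates 2 and 3 thus stood level with unaffected replicates 1 and 2, alopecic replicate 1 stood below all of them, and unaffected replicate 3 below every other array. The alopecic mean was 11.87 ± 1.66 and the unaffected mean 9.98 ± 4.79 (SD, n = 3). They differed by 1.89 (SE 2.43), with an adjusted p of 0.907 by limma.

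Krt32 is a keratin of the hair cuticle. Its log2 values were 9.25, 10.68 and 10.09 in alopecic and 11.58, 12.21 and 8.65 in unaffected replicates 1 to 3. In unaffected replicate 3 it lay 3.25 log2 units below the other unaffected arrays on average, where 6 of the other members lay 7.26 to 9.05 below theirs. Krt82, the type II keratin of the cuticle, had 8.03, 10.15 and 9.52 in alopecic and 11.001, 11.20 and 5.47 in unaffected skin. The groups overlapped for both genes, with alopecic replicate 1 as the lowest alopecic array each time. The differences were -0.81 (SE 0.98, adjusted p = 0.9) for Krt32 and 0.01 (SE 1.65, adjusted p = 0.999) for Krt82.

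The other type I members, Krt31, Krt33a, Krt33b and Krt34, and the type II member Krt86 are keratins of the cortex. Krt31 had log2 values of 10.30, 11.42 and 11.65 in alopecic and 12.81, 13.55 and 5.92 in unaffected replicates 1 to 3. Krt33a had 12.22, 11.82 and 12.62 in alopecic and 13.87, 14.41 and 5.09 in unaffected skin. For both genes the alopecic arrays formed a narrow band, with an SD of 0.72 for Krt31 and 0.40 for Krt33a, that lay between the high pair of unaffected arrays and the low one.

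Krt33b, a close copy of Krt33a that lies next to it, had log2 values of 10.74, 9.77 and 10.81 in alopecic and 12.40, 13.56 and 5.40 in unaffected skin. Krt34 had 11.66, 9.84 and 11.46 in alopecic and 12.99, 14.20 and 5.12 in unaffected skin. Krt86 had 10.72, 8.86 and 10.88 in alopecic and 12.38, 13.74 and 4.33 in unaffected skin. In these 3 genes alopecic replicate 2 was the lowest alopecic array, by 1.01, 1.72 and 1.93 log2 units from the mean of the other alopecic arrays. Hair keratin genes of one type are similar in sequence, and signal shared between the probe sets of such copies was not tested. The name of the Krt82 probe set marks it as one whose probes can match more than 1 transcript.

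Over all 6 arrays the differences of the 5 cortex keratins ran from -0.02 (SE 2.14, Krt33b) to 1.09 (SE 2.52, Krt33a), and their adjusted p from 0.946 (Krt33a) to 0.9998 (Krt86). For Krt86 the difference was 0.00 (SE 2.50), with a 95% interval of the fit from -6.16 to 6.17. Intervals of that width leave room for large differences in either direction, so these values do not show that the groups are alike.

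Krt84 is a type II hair keratin that in humans is found in the filiform papillae of the tongue. Its log2 values were 8.67, 6.45 and 6.67 in alopecic and 7.48, 10.44 and 6.43 in unaffected skin. Alopecic replicate 1 and unaffected replicate 2 were high, and the other 4 arrays lay within 6.43 to 7.48. The difference was -0.85 (SE 1.16, adjusted p = 0.911), and it turned to 0.31 without unaffected replicate 2. Unaffected replicates 1 and 2 differed by 2.96 for this gene, against 0.17 to 1.36 for the other 8 members.

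By limma with all 6 arrays, 0 of the 9 members passed an adjusted p of 0.05, where 0.275% of all genes did, and 0 had an unadjusted p under 0.05, where 7.15% of all genes did. In 0 of the 9 the groups did not overlap, against 13.1% of all genes. The median log2 difference was 0.01 over the members and -0.01 over all genes. The direction of single members was not settled, with 6 higher and 3 lower in alopecic skin.

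Unaffected replicate 3 held 42.2% of the squared distance of all arrays to their group mean, summed over all genes. Genes with large gaps weigh most in that sum, and the members are among them. A gap of over 1 log2 unit below the other unaffected arrays was found for 7.96% of all genes. The comparison was also made without this array, which was doubted after the data were seen. Without it all 9 members and 49.5% of all genes were lower in alopecic skin. The 9 were lower also with the arrays centred on their median or quantile-normalized. The array held the lowest value of all 9 members, so leaving it out could only lower their differences. It held the lowest value of 29.1% of all genes, so the shares of all genes without it are not a like-for-like background. In 7 of the 9 every alopecic array lay below both remaining unaffected arrays, against 14% of all genes; the exceptions were Krt35 and Krt84. The median log2 difference was -1.92 over the members and 0.00 over all genes.

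The difference without that array was -2.91 (SE 0.76) for Krt86, a level 7.52-fold lower, and -2.61 (SE 0.68) for Krt34, or 6.09-fold lower. It was -2.54 (SE 0.48) for Krt33b, -2.06 (SE 0.48) for Krt31 and -1.92 (SE 0.29) for Krt33a, or 5.83-fold, 4.16-fold and 3.80-fold lower. The cuticle keratins followed with -1.89 (SE 0.46) for Krt32 and -1.87 (SE 0.63) for Krt82. Krt35 had -0.87 (SE 0.96), with an interval from -3.32 to 1.58, and Krt84 -1.69 (SE 1.10), from -4.51 to 1.12. Whether Krt35 differed from the cortex keratins in this respect was not tested.

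In those 5 arrays limma gave 7 of the 9 members an unadjusted p under 0.05, where 4.71% of all genes were lower at that level. None of the 9 passed after adjustment over all genes (0.214% of all genes did), and their adjusted p ran from 0.155 for Krt33a to 0.833 for Krt35. Fitting without any other single array gave no member an unadjusted p under 0.05. Without unaffected replicate 2 the median of the members was 1.76, so its direction rests on which unaffected arrays are used.

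**Figure D2:**
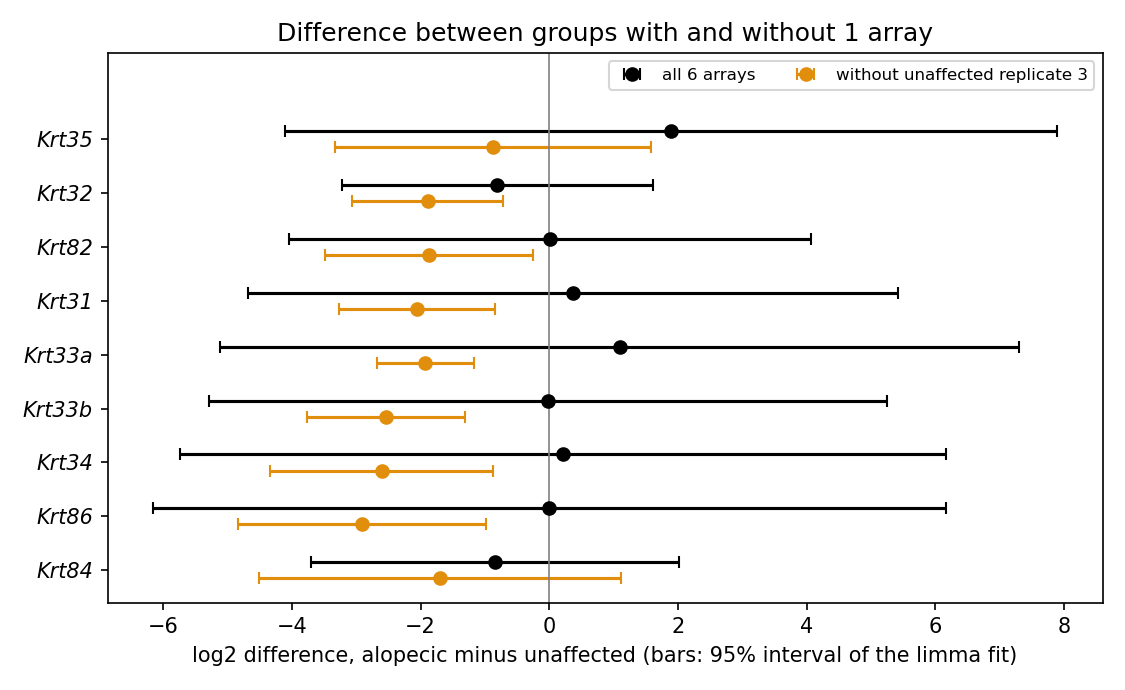
Log2 difference, alopecic minus unaffected, of each member (rows) with all 6 arrays (black) and without unaffected replicate 3 (orange); bars are 95% intervals of the limma fit. With all arrays every interval holds 0, and without that array all 9 points lie below 0 and the intervals of Krt35 and Krt84 hold 0.

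In unaffected replicate 3 the members were lower than the other unaffected arrays' mean by a median of 7.58 log2 units, where the median over all genes was -0.01. The gap was 9.05 for Krt33a, 8.74 for Krt86, 8.48 for Krt34, 8.30 for Krt35, 7.58 for Krt33b and 7.26 for Krt31. It was smaller for Krt82 (5.63), Krt32 (3.25) and Krt84 (2.53). A gap of over 1 log2 unit was found for all 9 members and 7.96% of all genes. Of the 9 members, 7 lay below the median of all probe sets on that array, 6.15, and Krt32 at 8.65 and Krt84 at 6.43 lay above it. The median over all genes was 7.45 there, and of the members only Krt32 lay above that. RMA differences are compressed near background and no detection calls were used, so these gaps understate ratios of dim signals.

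The low keratin signals of that array went with other genes of the hair follicle. Krt83 and Krt81, type II hair keratins of the cortex that are not members, lay 5.85 and 6.59 below the other unaffected arrays, and the type I hair keratin Krt36 lay 2.59 below them. For the 8 measured keratins of the inner root sheath and companion layer, which ensheathe the growing fibre, the median gap was 8.17, and 7 of them had their lowest value there. Krt25 of the inner root sheath stood at 5.77 against 14.10 and 14.24 in unaffected replicates 1 and 2. The exception was Krt75, with 10.98 against 11.34 and 12.07, a gap of 0.73. For 38 keratin-associated proteins, which embed the keratin filaments of the hair, the median gap was 7.85. Among 10 measured transcription factors of hair formation the median gap was 3.06, and Hoxc13, a factor required for a normal hair shaft, stood at 7.07 against 10.20 and 10.98. Gata3, a factor of the inner root sheath and also of the epidermis, did not share the gap, with 11.51 against 11.53 and 11.68. All 11 measured cell division genes had their lowest value there, Mki67 with 7.90 against 11.76 and 10.41 in unaffected replicates 1 and 2.

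Keratins of the epidermis and outer root sheath had a smaller median gap, 0.42 over the 12 on that list, and 6 of the 12 were at their lowest value in unaffected replicate 3. Krt16 and Krt17, keratins of the outer root sheath and of stressed epidermis that were chosen after their values were seen, lay 2.25 and 1.30 below the other unaffected arrays. The 10 others on the list lay less than 1 below them or, as Krt1, Krt5 and Krt15 did, above them. Krt14, of the basal layer of epidermis and outer root sheath, had a log2 value of 13.47 in unaffected replicate 3 and 13.67 and 13.85 in the other unaffected arrays. Its value was 13.47 or above on all 6 arrays, so this defining marker of skin epithelium was present in each. Skeletal muscle genes were higher in that array, 8 of 8 at their highest value of all 6 arrays; the log2 of their summed signal was 17.55 there, 16.45 and 14.59 in the other unaffected arrays and 15.68 to 16.75 in the alopecic ones. The 4 measured sebaceous gland genes were all at their lowest there, with a log2 summed signal of 12.96 against 14.37 to 14.87 in the other 5 arrays. For adipocyte genes the log2 summed signal was 13.55 there, 14.28 and 14.65 in the other unaffected arrays and 13.01 to 13.98 in the alopecic ones, with 4 of 6 genes at their lowest. For 6 fibroblast genes it was 14.34 there, 15.70 and 15.11 in the other unaffected and 14.31 to 15.38 in the alopecic arrays. None of these markers is at 0 on any array, and their part in the keratin values was not tested.

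**Figure D3:**
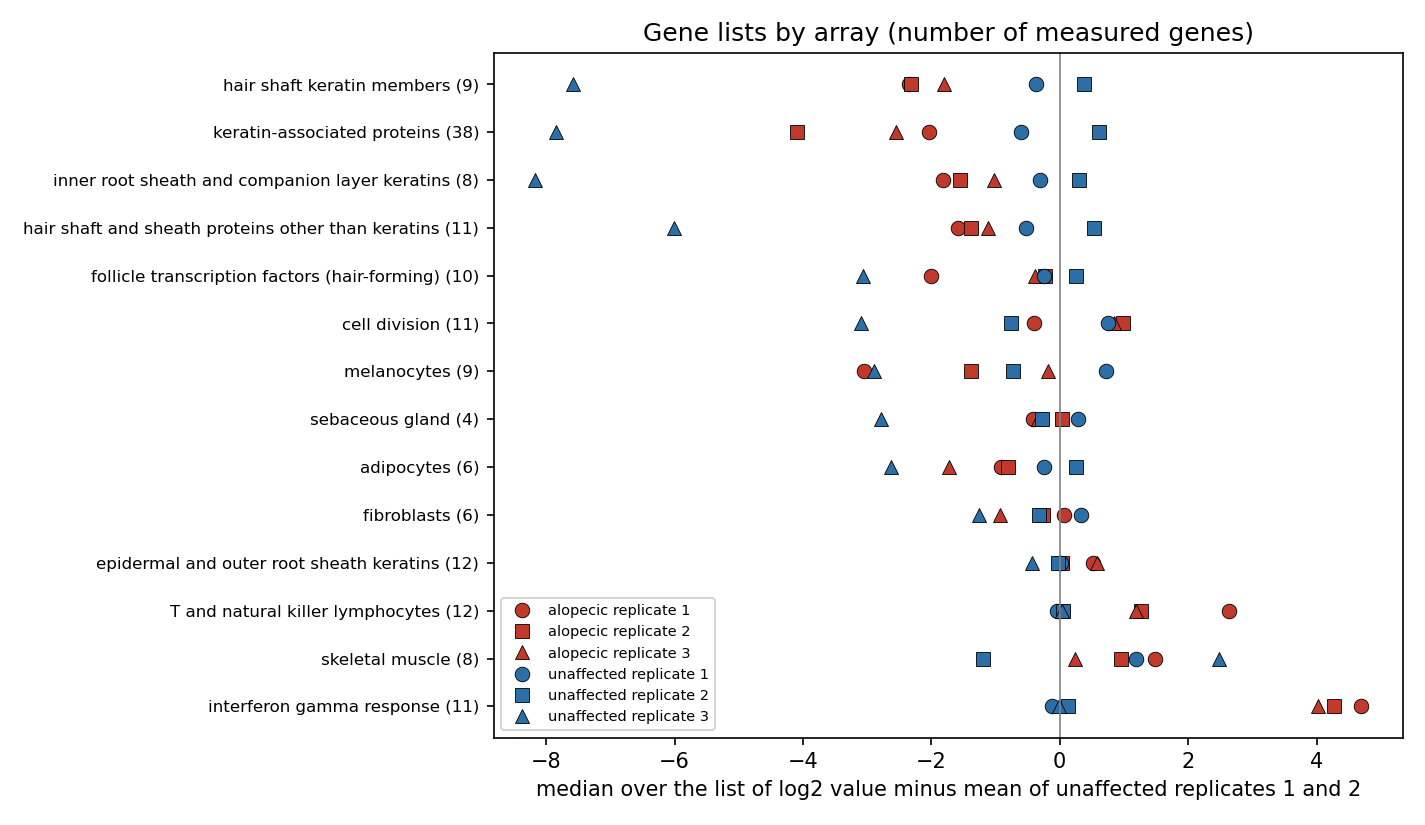
Median, over the genes of each list (rows, number of measured genes in brackets), of the log2 value minus the mean of unaffected replicates 1 and 2 (x axis), for each of the 6 arrays. Unaffected replicate 3 (blue triangles) lies far to the left for the hair shaft and sheath lists and near 0 for epidermal keratins, and the alopecic arrays (red) lie between -2.35 and -1.80 for the hair shaft keratins.

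Among the alopecic mice the members split by which array was the lowest. Alopecic replicate 1 was the lowest alopecic array for 4 members, Krt35, Krt32, Krt82 and Krt31, which lay 2.88, 1.14, 1.80 and 1.24 log2 units below the mean of the other alopecic arrays. Alopecic replicate 2 was the lowest for the other 5, Krt33a, Krt33b, Krt34, Krt86 and Krt84. Over all genes replicate 1 was the lowest of the 3 in 44.1% and replicate 2 in 26.8%, so the count for replicate 1 is near the share of all genes. The first set holds the matrix and cuticle keratins with Krt31 of the cortex, and the second holds the other cortex members and Krt84. Cortex keratins thus stand in both sets. Of those that are not members, Krt83 was lowest in replicate 1, by 0.62 from the mean of the other alopecic arrays. Krt81 was lowest in replicate 2, by 1.27. For Krt33a the gap of replicate 2 was only 0.60. Whether the split follows the part of the hair was not tested. A gap of over 1 log2 unit was found in replicate 1 for 4 of the 9 members and 2.34% of all genes, and in replicate 2 for 4 of the 9 members and 2.25% of all genes. Which array was the lowest is a trait of single mice and has no replicate check.

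Other follicle genes also differed among the alopecic mice. Of the 10 transcription factors 6 were lowest in alopecic replicate 1, 3 in replicate 2 and Gata3 in replicate 3. Of all genes, 44.1% were lowest in replicate 1 and 26.8% in replicate 2. Hoxc13 had log2 values of 8.82, 10.39 and 10.84 in alopecic replicates 1 to 3. Lef1, a factor of Wnt signalling in matrix cells, had 7.01, 10.68 and 10.16, and Dlx3, a homeobox factor of the hair matrix, had 8.48, 10.61 and 10.63; both were chosen after their values were seen. All 11 cell division genes were lowest in replicate 1, with Mki67 at 10.69, 12.38 and 11.88 and Top2a at 10.42, 12.03 and 11.58. Of the 38 keratin-associated proteins, in contrast, 33 were lowest in replicate 2. Krtap8-1 had 13.40, 12.46 and 13.54, and Krtap22-2 had 12.90, 10.83 and 12.80. Marker genes of T and natural killer cells had a log2 summed signal of 12.99 in alopecic replicate 1, 11.63 in replicate 2 and 11.73 in replicate 3, against 10.45 to 10.51 in unaffected skin. Their part in these differences among the alopecic mice was not tested.

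**Figure D4:**
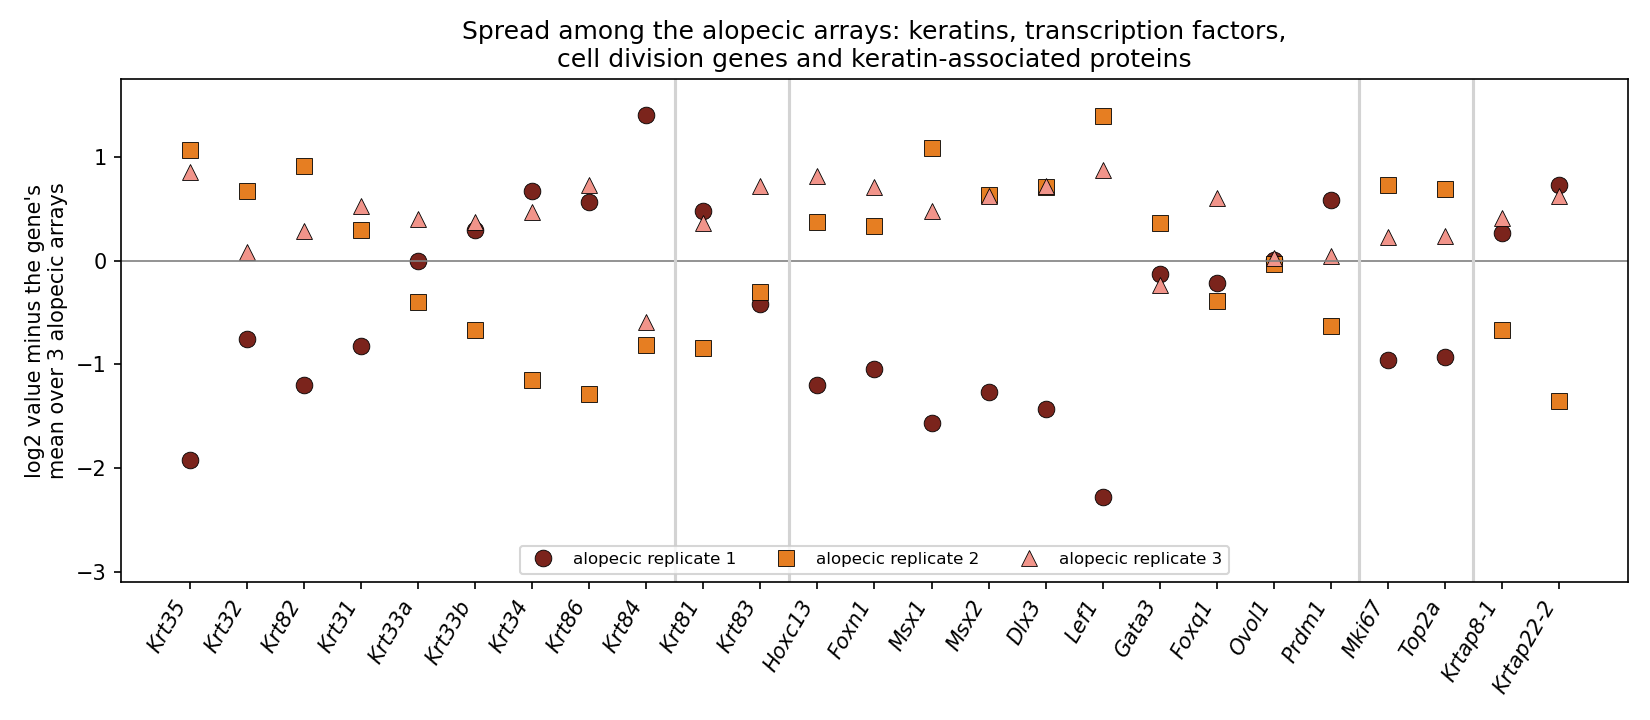
Log2 value minus the gene's mean over the 3 alopecic arrays (y axis) for the 9 members, Krt81 and Krt83, the 10 transcription factors, 2 cell division genes and 2 keratin-associated proteins (x axis, groups divided by grey lines); symbols mark the replicate. Alopecic replicate 1 is lowest for Krt35, Krt32, Krt82, Krt31, Krt83, 6 of the 10 transcription factors and the cell division genes shown, and replicate 2 is lowest for Krt33a, Krt33b, Krt34, Krt86, Krt84, Krt81, the factors Foxq1, Ovol1 and Prdm1 and the keratin-associated proteins shown.

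The high unaffected arrays also differed between these gene groups. All 9 members were higher in unaffected replicate 2 than in replicate 1, by 0.17 (Krt35) to 2.96 (Krt84). Cell division genes went the other way, with Mki67 at 11.76 in replicate 1 and 10.41 in replicate 2 and Top2a at 11.42 and 9.91. Keratin-associated proteins lay a median of 0.61 above the mean of this pair of arrays in replicate 2 and as far below it in replicate 1.

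The other genes of the hair were compared between the groups by the same fit. With all 6 arrays none of the 3 other measured hair keratins, the 8 keratins of the inner root sheath and companion layer, the 38 keratin-associated proteins, the 10 transcription factors and the 11 other shaft and sheath proteins rose or fell, and at this threshold 0.264% of all genes rose and 0.011% fell. Their median log2 differences were -0.23, 1.32, -0.32, 0.18 and -0.29. Krt83 differed by -0.23 (SE 1.68) and Krt81 by -0.54 (SE 1.87). Without unaffected replicate 3 the medians were -2.18, -1.37, -2.88, -0.73 and -1.35, and 4 of the 38 keratin-associated proteins fell (0.0275% of all genes fell), with none of the other genes on these lists passing.

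Those 4 were Krtap17-1, Krtap28-13, Krtap5-5 and Krtap10-4, the last 2 of them chosen after their values were seen. Krtap17-1 was lower by a log2 difference of -2.11 (adjusted p = 0.0332 by limma) and Krtap28-13 by -2.99 (adjusted p = 0.0332). For Krtap17-1 the alopecic arrays held 10.88, 11.04 and 11.23, and unaffected replicates 1 and 2 held 12.97 and 13.35. The epidermal and outer root sheath list had a median of 0.43 with all arrays and 0.32 without unaffected replicate 3, and 0 of its 12 genes passed in either fit. Krt14 differed by 0.48 (SE 0.14, adjusted p = 0.522) and Krt10, a keratin of the upper epidermis, by -0.30 (SE 0.33). Genes induced by interferon gamma were higher in every alopecic array: of 11 measured, 10 rose with all 6 arrays and 10 without unaffected replicate 3, and Cxcl9, a chemokine that attracts T cells, had 13.49, 12.30 and 12.89 in alopecic and 6.09, 6.98 and 6.93 in unaffected skin. For those genes unaffected replicate 3 did not stand apart, with a median gap of 0.02 log2 units from the other unaffected arrays.

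The genes outside the set with the most similar profile over the 6 arrays were found by the root mean square difference, in log2 units, from the mean of the 9 members, after each profile was centred on its own mean. Krtap17-1 was nearest at 0.40, followed by Gprc5d, an orphan receptor known from hair follicles, at 0.42, Ly6g6d at 0.43, Krt83 at 0.43 and Krtap28-13 at 0.46. Psors1c2 had 0.47, Padi3, the enzyme that converts arginine to citrulline in follicle proteins, 0.53, Lrrc15 0.54, Calhm4 0.54 and Cryba4 0.55. The members themselves lay from 0.38 (Krt31) to 1.80 (Krt84) from that mean, of which each is a part. Gprc5d had log2 values of 9.91, 9.21 and 10.29 in alopecic and 11.67, 13.24 and 5.71 in unaffected skin. Its alopecic arrays lay between the high pair of unaffected arrays and unaffected replicate 3, as those of most members did. All 10 of these genes had their lowest value in unaffected replicate 3, and how far that array sets the order of likeness was not tested.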

How the data were processed

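The log2 values of the probe sets are those the authors deposited, made with RMA per the submitters' processing notes, which includes background correction, normalization between arrays and a summary over probes. Total RNA was labelled with a 3' IVT kit, per the labels' protocols. The values, from 3.07 to 14.92, were used as deposited. An array has no read depth, and 3 arrays per group limit the precision. Of 45101 probe sets, 64 were controls; 34945 carried 1 gene symbol in the platform annotation, 932 several, and 9160 non-control probe sets none. Symbols of 34741 were updated through GRCm38.p6 RefSeq identifiers and 204 kept. For each of 18193 genes the brightest probe set on average was used; each measured member had only 1. Groups were compared with limma 3.58.1 in R 4.3.3 (lmFit, eBayes, two-sided), with Benjamini-Hochberg adjustment over all genes and a threshold of 0.05; every adjusted p in the text comes from such a fit. A second fit ran over all 45037 non-control probe sets. The script was tested on simulated data. Members, lists and the rule for named genes (all members, the other hair shaft keratins, up to 4 genes past the threshold per list or else the 2 brightest, and 10 genes of like profile) were chosen with earlier results of these data known. Array replicates, block, probe set choice, filter, normalization, centring, weights and variance model were varied.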

Additional observations from a re-analysis of the deposited data

How the results depend on the processing

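In none of the 15 alternative fits did a hair shaft keratin pass the threshold by limma; the smallest adjusted p was 0.153, without unaffected replicate 3 and with arrays centred on the median, an alternative chosen after seeing the data. At an unadjusted p under 0.05 there were 7 of 9 members in the 3 fits without that array, 1 with array weights and 0 in the others. Of 135 member results 99 kept their direction and 36 did not; most of the changes of sign came with unaffected replicate 3 left out or given the lowest array weight (0.227), and the rest were those of Krt33b, Krt34, Krt82, Krt84 and Krt86, of which Krt84 turned to 0.31 without unaffected replicate 2. The median of the members ran from -1.92 to 1.76 when single arrays were left out. It was -1.26 with array weights. With array weights the sign turned for Krt31 (-1.12), Krt33a (-1.10), Krt34 (-1.77), Krt82 (-1.17) and Krt86 (-1.93), with arrays centred on the median for Krt82 (-0.0833) and Krt86 (-0.0899), and with quantile normalization for Krt33b (0.0101). With single arrays left out the log2 differences ran from -2.06 to 1.76 for Krt31, -1.92 to 2.74 for Krt33a, -2.54 to 1.54 for Krt33b, -2.61 to 1.93 for Krt34, -0.87 to 3.32 for Krt35, -1.87 to 0.997 for Krt82, -1.69 to 0.31 for Krt84 and -2.91 to 1.80 for Krt86; Krt32 stayed lower (-1.89 to -0.11). Without unaffected replicate 3 the differences with arrays centred on the median and with quantile normalization were -2.10 and -2.01 for Krt31, -1.97 and -1.93 for Krt33a, -2.65 and -2.63 for Krt34, -0.92 and -0.86 for Krt35, -1.91 and -1.87 for Krt82 and -2.96 and -2.88 for Krt86. Over all genes 50 passed, 4 to 39 with single arrays left out and 139 with array weights; over all probe sets 64 passed, and 0 to 68 with single arrays left out (2572 and 2779 at an unadjusted p under 0.05 in the fits with 0). The replicate numbers gave no sign of pairing the mice: deviations of same-numbered arrays correlated across genes at -0.13, -0.20 and -0.33. With 3 arrays per group these correlations cannot exclude a pairing. With the number as a replicate block 0 genes and 0 probe sets passed (873 and 1959 at an unadjusted p under 0.05), and the member differences were the same. The cause of these changes was not tested.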

Other observations

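Pigment cell genes, whose cells hand melanin to the growing shaft, were not in the comparisons above. Of 9 measured, 0 rose or fell with all 6 arrays (median log2 difference -0.48) and 0 without unaffected replicate 3 (median -1.52, all 9 lower). Dct, a melanin synthesis enzyme, had log2 values of 8.26, 10.01 and 11.13 in alopecic replicates 1 to 3 and 11.94, 10.70 and 8.996 in unaffected replicates 1 to 3. Of the 9 genes 8 were lowest in alopecic replicate 1 among the alopecic arrays, as were Krt35, Krt32, Krt82, Krt31 and 44.1% of all genes. Mitf, the transcription factor of pigment cells, was lower by a log2 difference of -1.29 (SE 0.28, adjusted p = 0.309 by limma), and its alopecic values of 9.76, 9.07 and 9.31 lay below its unaffected values of 10.63, 11.12 and 10.28. Dermal papilla genes, from the cells that steer the follicle from below, had a median difference of 0.05 with 0 of 10 past the threshold; Wif1, an inhibitor of Wnt signalling, had 5.57, 10.18 and 8.89 in alopecic and 9.38, 7.95 and 6.37 in unaffected replicates.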
